A study of Xenopus laevis with 3 samples.

Results

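The genes described here are the numbered G protein-coupled receptors (symbols beginning gpr or gprc), the adhesion receptors (adgr) and the relaxin receptors (rxfp) of Xenopus laevis, measured in testis RNA. They were chosen by gene symbol alone, after removal of the ending .L or .S. The rule found 139 rows under 83 symbols, of 34694 gene rows in all. Xenopus laevis is an allotetraploid frog, so many genes exist as a pair of homeologs, named L and S after the chromosome set that holds each. Of the 83 symbols, 56 had both copies, 20 had the L copy only and 7 the S copy only. Rows with a locus number in place of a gene name were not searched for further receptors, and 12269 rows were of that kind.

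Messenger RNA from whole testis was poly-A selected and sequenced in 3 libraries, each labelled as an untreated male of outcrossed laboratory stock. The libraries differ in the date of processing, form a single group and are called replicates 1, 2 and 3. Nothing in the labels states that the animals were separate, so every SD covers the spread between these libraries, which may be technical. Unless said otherwise, the p-values rest on how ratios within a library vary across these libraries, which may be technical too. The libraries held 61212304 to 70580016 counts. Markers of the cell types of a testis were present: all rows matched for germ line, meiosis, spermatid, Sertoli, Leydig, smooth muscle and endothelial cells were detected. Of the lists for other cells a dissected testis could hold, 8 of 9 leukocyte rows, 4 of 7 erythrocyte, 5 of 8 adipocyte, 4 of 11 neural and glial and 6 of 8 epithelial duct rows were detected. Whole tissue was measured, so fewer cells of a type and less RNA per cell cannot be told apart.

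G protein-coupled receptors cross the membrane several times and pass a signal from outside the cell to G proteins inside it. Those with a number instead of a ligand name were found by sequence and are called orphans until a ligand is agreed on. Adhesion receptors carry a long extracellular part that binds matrix or neighbouring cells, and most cut themselves at a site next to the first membrane pass. Relaxin receptors answer small hormones related to insulin. The symbols also cover several proteins that share the numbered name but work on Golgi or lysosomal membranes (gpr89, gpr107, gpr137, gpr155) or stand outside the usual receptor classes (gpr180). These are counted together below as internal membrane proteins, gpr180 with them for want of a receptor class rather than for a known place in the cell. The name orphan is therefore loose here, since some members have an agreed ligand and some are not receptors at the cell surface.

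Most of these genes were low in testis. A row was called detected when its CPM (counts per 1000000 after scaling by TMM, a between-library normalisation) reached 0.5, with over 3 counts, in each of the 3 libraries. By this measure 65 of the 139 receptor rows were detected, or 46.8%, from 46 symbols. The same held for 66.7% of all rows and for 81.6% of rows with a gene name. The median receptor row had 0.593 TPM (transcripts per 1000000, a level per base of gene length), against 3.25 TPM over all rows and 7.90 over named rows. Of the receptor rows 82 lay under 1 TPM, or 59.0%, against 35.8% of all rows and 21.2% of named rows. Over 10 TPM lay 15, or 10.8%, against 32.9% of all rows and 44.9% of named rows. Summed over all 139 rows the family reached 493, 513 and 469 TPM in replicates 1, 2 and 3.

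The classes differed in how much of them was detected. All 10 rows of the internal membrane proteins passed, with a median of 14.3 TPM, and 17 of 18 adhesion rows passed, with a median of 2.10 TPM. Class C receptors, which in other members sense amino acids or calcium with a large outer domain, had 6 of 13 rows detected. Among the other numbered receptors 31 of 90 rows were detected, and among relaxin receptors 1 of 8. The cut is on CPM, which does not divide by length, so at the same TPM a longer gene passes more easily. For example, adgrg2.S, of 3714 bases, passed at 0.533 TPM, while gpr4.L, of 1062 bases, did not at 0.772. On TPM, 6 of 18 adhesion rows lay under 1, or 33.3%, against 60 of 90 other numbered rows, or 66.7%. The share was 35.8% of all rows, near that of the adhesion rows, and 21.2% of rows with a gene name. The summed level was 170 ± 5.54 TPM for the internal membrane proteins, 59.7 ± 5.73 for adhesion receptors, 37.2 ± 5.36 for class C, 221 ± 27.2 for the other numbered receptors and 3.36 ± 1.28 for relaxin receptors (SD, n = 3). The 10 internal membrane rows thus held 34.6 ± 0.755% of the summed TPM of the family. The sums of the family and of the other numbered receptors rested in part on gpr85.S, described next. Without that row they were 428 ± 18.8 and 157 ± 11.0 TPM (SD, n = 3), so the internal membrane rows then held a larger share.

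**Figure D1:**
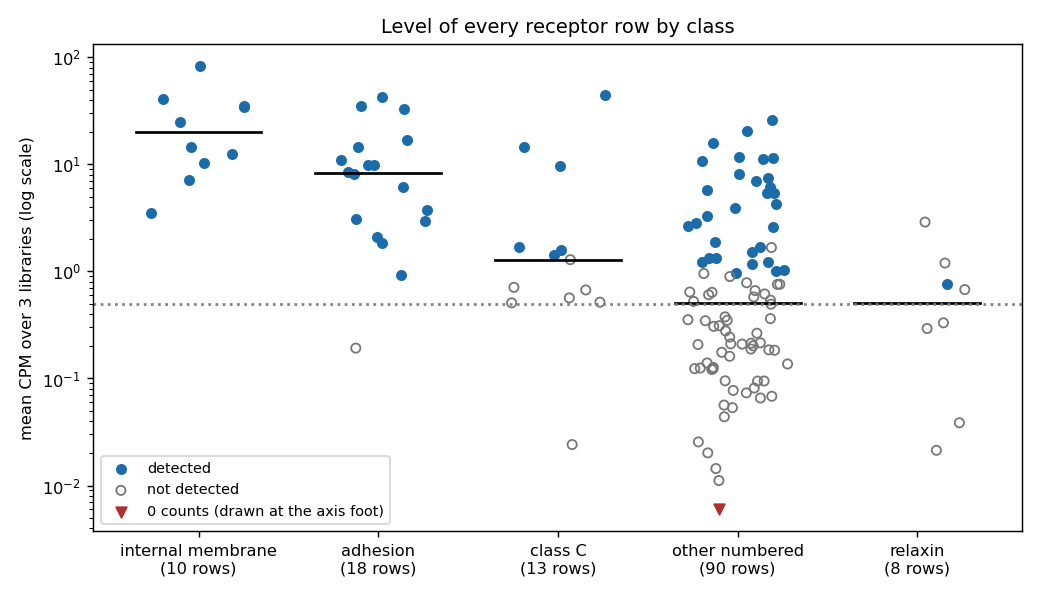
Mean CPM over 3 libraries (log scale), which does not divide by gene length, of each of the 139 receptor rows, by class. Filled points were detected, open points were not, black lines are class medians, the dotted line is 0.5 CPM and the triangle is gpr78.S with 0 counts; all 10 internal membrane rows and 17 of 18 adhesion rows are filled, against 31 of 90 other numbered rows.

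**Figure D2:**
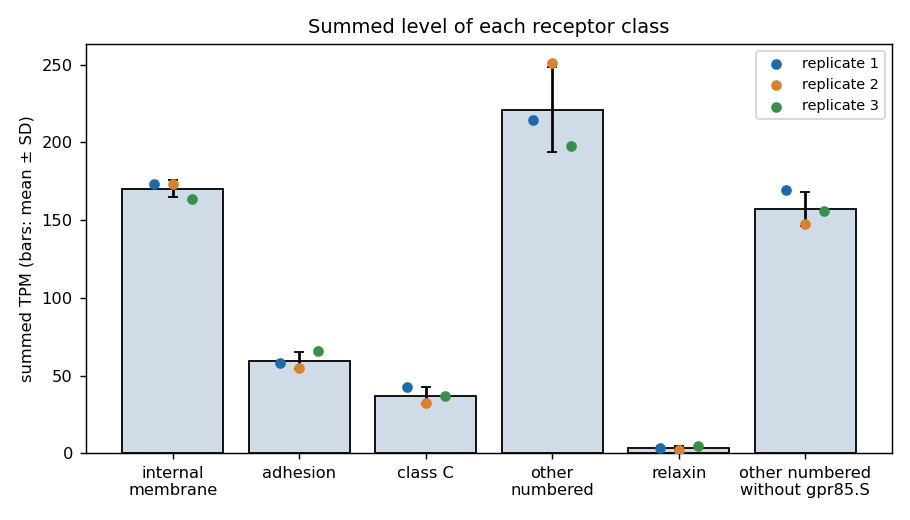
Summed deposited TPM of each receptor class, with bars for the mean, error bars for the SD and points for the 3 libraries. The other numbered receptors reach 221 TPM with gpr85.S and 157 without it, near the 170 TPM of the internal membrane proteins.

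The highest TPM of the family belonged to a row whose gene model is short. The row gpr85.S, a copy of the conserved brain receptor SREB2, had 45.6, 104 and 41.6 TPM from 558, 1249 and 454 counts. It ranked first in each library and held 12.8 ± 6.41% of the family's summed TPM (SD, n = 3), with replicate 2 far above the others. Its deposited length is 186 bases, too short to encode a whole receptor, while gpr85.L has 1113 bases. The next shortest receptor row has 861. On CPM, which does not divide by length, gpr85.S stood at 11.4 and ranked 19. The reference annotation, assembly Xenopus_laevis_v10.1, also places a protein-coding locus and a long noncoding RNA across it, so its level per base is uncertain. The log2 ratio of gpr85.S to the next row was 0.80 ± 0.50 (SD, n = 3), above 0 in 3 of 3 libraries. Flipping its sign in an exact permutation test, two-sided, returned p = 0.25, and no lower p can be had from 3 libraries. That row was picked as highest in the same libraries.

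Behind it came proteins of internal membranes. The row gpr155.S, which in human cells encodes a lysosomal cholesterol sensor, had 30.9, 40.1 and 30.3 TPM and led the family on CPM, at 82.8. The row gpr137c.L, of a family of lysosomal membrane proteins, had 27.8, 37.4 and 31.2 TPM. The row gpr89b.L, for the Golgi pH regulator, had 31.8, 31.2 and 31.0 TPM, and its SD of 0.416 was the smallest of the 15 highest rows. These 3 rows overlapped across libraries: gpr155.S exceeded gpr137c.L in 2 of 3 libraries, by 0.07 ± 0.10 on the log2 scale (SD, n = 3). Both copies of gpr107, which encodes a protein of the trans-Golgi network, followed at 20.7 ± 3.86 TPM for L and 15.3 ± 4.84 for S. Lower rows of this class were gpr137b.L at 13.4 ± 1.71 TPM, gpr180.S at 10.2 ± 2.45, gpr180.L at 5.87 ± 1.35, gpr155.L at 4.24 ± 0.641 and gpr137c.S at 3.30 ± 0.669 (SD, n = 3).

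Receptors of the cell surface made up the rest of the 15 highest rows. The row gpr146.S, whose mouse counterpart acts on blood cholesterol through the liver, had 30.5, 15.3 and 19.5 TPM, and replicate 1 stood above the others. The row gpr1.L, for a receptor of the adipokine chemerin in mammals, had 20.6, 12.6 and 14.8 TPM. The adhesion receptor adgre5.L, known as CD97 and as a partner of CD55 on mammalian leukocytes, had 13.19, 13.99 and 15.22 TPM, a narrow range. The orphan gpr153.S had 8.57, 19.2 and 13.6 TPM, so that replicate 2 was over replicate 1 by more than 2-fold. The class C row gprc5b.L, of a group induced by retinoic acid in mammals, had 15.4, 8.65 and 15.8 TPM. The row gpr157.L, linked to primary cilia of mouse neural progenitors, had 9.83, 14.35 and 14.02 TPM. The class C row gpr158.L, a glycine receptor in mouse brain that carries no usual G protein signal, had 10.05, 16.67 and 8.40 TPM, and on CPM it ranked 2 in the family at 44.1.

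The order among these rows was mostly not fixed across libraries. Of the 15 steps from a row to the one below it, from gpr85.S down to adgrl2.L, 3 had the same sign in all libraries and 12 did not. The 3 were gpr85.S over gpr155.S, gpr89b.L over gpr146.S and gpr107.L over gpr1.L. The 15 highest rows held 65.8 ± 4.85% of the family's summed TPM (SD, n = 3), and 11 rows stood among the 15 highest in each library. In the annotation gpr146.S lies inside c7orf50.S (4.85 TPM) and adgre5.L overlaps ddx39a.L (126 TPM), and the strand setting of the counting is not given in the sources used here.

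**Figure D3:**
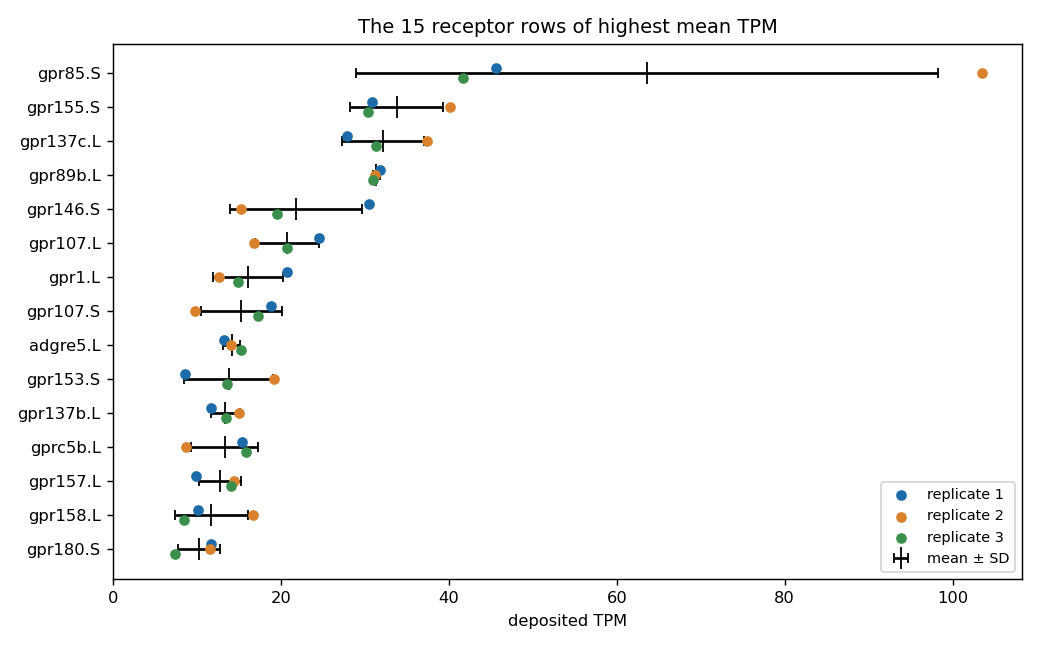
Deposited TPM of the 15 receptor rows of highest mean, with a point for each library and a bar for the mean ± SD. The row gpr85.S, with a model of 186 bases, spans 41.6 to 104 TPM, gpr155.S, gpr137c.L and gpr89b.L overlap between 27.8 and 40.1, and most rows below them overlap with their neighbours.

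The adhesion receptors were broadly present at low to moderate levels. The latrophilins, whose mammalian forms bind teneurins and FLRT proteins on other cells, were led by adgrl2.L at 9.70 ± 1.51 TPM and adgrl2.S at 8.05 ± 1.33, with adgrl3.S at 2.26 ± 0.187 and adgrl1.L at 0.912 ± 0.224 (SD, n = 3). The row adgra3.L, whose mouse counterpart GPR125 marks spermatogonial stem and progenitor cells, had 5.65, 3.61 and 4.47 TPM. The other adgra rows were lower, with adgra2.L, a Wnt co-receptor of mammalian brain vessels, at 0.807 ± 0.335 TPM and adgra1.S at 0.573 ± 0.127, while adgra1.L was not detected with 12, 12 and 14 counts.

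Among the adgrg rows, adgrg1.L, known as GPR56 and as a receptor for collagen III, had 4.83, 3.37 and 4.76 TPM. The annotation has adgrg1.L overlapping ccdc102a.L (3.91 TPM) and adgra3.L overlapping gba3.L (3.74 TPM). The gene adgrg2 is needed in the mouse for fluid uptake in the efferent ducts, which drain the testis, and adgrg2.L had 1.23, 2.16 and 2.34 TPM while adgrg2.S had 0.573, 0.515 and 0.510. The L copy was thus over the S copy in each library. The remaining adhesion rows were adgrf1.S at 2.63 ± 0.899 TPM, adgrf1.L at 2.24 ± 0.641, adgrb2.L at 2.59 ± 0.497 and adgrb2.S at 1.96 ± 0.514 (SD, n = 3). The vessel-linked adgrl4.L and adgrl4.S were at 1.44 ± 0.850 and 0.985 ± 0.507 TPM.

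Genes for the ligands of adhesion receptors were measured beside them. Of 24 such genes 13 matched a row by symbol, and 21 of their 23 rows were detected. Transglutaminase 2, a ligand of GPR56 in mammals, was highest with tgm2.S at 192 ± 45.1 TPM and tgm2.L at 64.7 ± 15.8, followed by the prion protein copies prnp.S at 44.6 ± 7.63 and prnp.L at 15.4 ± 2.60 (SD, n = 3). The FLRT rows lay between 0.53 and 3.48 TPM. Teneurin genes had no row under their symbols and are not described.

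In class C the detected rows besides gprc5b.L and gpr158.L were gprc5cl1.S, gprc5b.S and both copies of gpr179, a protein of the retina's bipolar cells. The row gprc5cl1.S had 11.0, 3.11 and 7.54 TPM, with replicate 2 the lowest. The row gprc5b.S had 1.79, 0.584 and 1.90 TPM, and replicate 2 was again the lowest. The gpr179 copies were at 0.357 ± 0.0868 TPM for S and 0.329 ± 0.0396 for L (SD, n = 3). The annotation has gpr179.L overlapping the protein-coding mrpl45.L, at 29.3 TPM. Not detected were, among others, gprc5cl1.L, gprc5a.L, gprc5a.S, gprc5cl2.L, gprc5cl2.S and gprc6a.L, with means from 0.0238 to 0.564 TPM.

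Relaxin receptors were the lowest class. The single detected row was rxfp1.L, a copy of the relaxin receptor, with 64, 57 and 35 counts, or 0.357 ± 0.0866 TPM (SD, n = 3). Its homeolog rxfp1.S had 36, 135 and 63 counts and fell below 0.5 CPM in replicate 1. The row rxfp2.S, for the receptor of INSL3, which guides descent of the testis in mice, had 107, 3 and 432 counts, or 1.42, 0.0459 and 7.21 CPM. Its 3 libraries did not resemble each other, and rxfp2.L had 30, 26 and 5 counts. The relaxin 3 receptor rows rxfp3.S and rxfp3.L had 91, 31 and 21 counts and 47, 10 and 13 counts, the most in replicate 1 for both. The INSL5 receptor rows rxfp4.S and rxfp4.L had 4, 3 and 1 counts and 0, 2 and 2 counts. The ligand of that last receptor was present, with insl5.L at 5.31 ± 1.17 TPM and insl5.S at 3.17 ± 0.451, while rln3.S was not detected. For rln1, rln2, insl3 and insl6 no row carried the symbol, and they are not described.

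Several groups of the other numbered receptors are known together from mammals or frogs, and they were grouped here after their values had been seen. Another group formed in the same way is not reported here. Over the whole class of other numbered receptors 31 of 90 rows, or 34.4%, were detected. The SREB family, orphans conserved in vertebrate brain, had 4 of 6 rows detected: gpr85.S, gpr85.L, gpr173.L at 5.77 ± 0.694 TPM (SD, n = 3) and gpr27.S. Of 16 rows for receptors known from mammalian leukocytes, among them gpr18, gpr34, gpr84 and gpr171, gpr174.L was detected and the other 15 had means of at most 0.759 CPM. A group of 3 symbols for receptors that raise cyclic AMP without a ligand, gpr6, gpr12 and gpr185a, had 0 of 5 rows detected. It does not cover every receptor with that property. In the Xenopus oocyte gpr185a holds meiosis in arrest. The means of these 5 rows were 0.0438 to 0.539 CPM.

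The detected rows of this class below the highest were spread from 0.593 to 8.53 TPM. The row gpr160.L was at 8.53 ± 1.92 TPM, gpr75.L at 7.64 ± 1.999 and gpr75.S at 7.12 ± 1.52, with close means (SD, n = 3). The gpr75 copies differed in opposite directions by library, with L at 5.46 and S at 8.54 TPM in replicate 1 and L at 9.38 and S at 5.52 in replicate 3. The row gpr143.L, for a receptor of pigment cell organelles, had 6.41, 3.51 and 2.82 TPM. The gpr149 copies, studied in mouse oocytes, were at 3.62 ± 0.538 TPM for L and 2.74 ± 1.69 for S. The row gpr37.L, whose mammalian product has been linked to prosaposin as a ligand, was at 2.26 ± 0.330 TPM, while the prosaposin copies psap.S and psap.L stood at 82.9 ± 22.5 and 81.1 ± 21.4.

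Of the 74 rows not detected, 45 were under 0.5 CPM in every library, and 39 reached 0.1 CPM with over 3 counts in all 3. Their median was 0.214 CPM. Among the highest by mean were rxfp2.S, gpr22.S, rxfp1.S and gpr143.S, each held back by at least one low library. The row gpr22.S, a copy of a receptor known from heart and brain in mammals, had 5, 160 and 150 counts, and gpr143.S had 35, 72 and 78. One row, gpr78.S, had no counts at all. A count of 0 allows up to 0.0398, 0.0459 and 0.0501 CPM in replicates 1, 2 and 3, taking 3 counts as the limit. Limits of this kind cover counting error only. In the annotation, 7 undetected rows lie inside the span of another protein-coding gene, among them gpr52.L and gpr52.S in the rabgap1l copies and gpr22.L in cog5.L. Besides these, gpr22.S lies inside the span of a pseudogene, LOC108712348, which has no row of its own. Whether exons are shared was not examined, so reads of the host may be among their counts.

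Genes for the proteins that receptors act through were measured as well. Of 22 rows for G protein alpha subunits and their chaperones 21 were detected, with gnas.L at 44.6 ± 7.64 TPM, gnai3.S at 44.2 ± 8.33, gnai1.L at 34.3 ± 2.44 and gnai2.S at 27.2 ± 6.11 (SD, n = 3). These carry the stimulating and inhibiting signals to adenylyl cyclase. Of 17 rows for receptor kinases and arrestins, which shut receptors off, 13 were detected, with arrb2.L at 9.86 ± 2.19 TPM, grk4.L at 7.95 ± 1.76, grk6.S at 7.17 ± 2.34 and arrb2.S at 6.68 ± 1.12. The list of protein kinase A subunits and tulp3, which carries receptors into cilia, had 11 of 11 rows detected, led by prkar1a.S at 75.8 ± 10.8 TPM. The ciliary receptor gpr161 itself matched no row and was not analysed here. Of 7 rows for prosaposin and for enzymes that make or remove oxysterol ligands 5 were detected, with hsd3b7.L at 6.09 ± 1.29 TPM. The oxysterol receptor gpr183 is not among the 139 receptor rows. Over all 6 partner lists 73 of 83 rows were detected, or 88.0%, against 81.6% of all named rows. The lists of kinases and arrestins, at 76.5%, of ligand makers, at 71.4%, and of relaxin family ligands, at 66.7% of only 3 rows, lay below that share.

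The design allows a test between the L and S copies of a gene within the same libraries. Of the 56 receptor pairs 27 had enough counts, meaning L and S together at 1 CPM in all libraries. The test was edgeR's quasi-likelihood test over all 6627 such pairs of the table, with the library as a block, per base of gene length and with Benjamini-Hochberg adjustment. It called 16 of the 27 receptor pairs at an adjusted p of 0.05, or 59.3%, against 61.1% of all pairs. L was higher in 8 and S in 8, which is 29.6% each, against 34.4% and 26.7% of all pairs. Differences over 4-fold were called in 12 of 27 pairs, or 44.4%, against 21.1% of all pairs. Without gpr85 and gpr143, whose copies differ in length over 1.5 times, it was 10 of 25 receptor pairs. No share of all pairs is given for that setting. Receptor pairs are low, and among pairs with 5.04 to 20.9 CPM for both copies together, the middle of the receptor range, the shares were 7 of 13 receptor pairs, or 53.8%, and 26.5% of all pairs. These 7 still include gpr85 and gpr143. The fold was fixed as a description and the shares were not tested against each other.

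Pairs in which L was higher were led by gpr1. The row gpr1.L had 1433, 866 and 919 counts and gpr1.S 2, 0 and 3, with equal lengths of 1056 bases. Its fitted log2 ratio, L over S, came to 9.25 (SE 0.593, adjusted p = 0.000507, edgeR), rank 13 by size among all pairs tested, and 10.06 without replicate 3. For gpr160, an orphan, L had 715, 529 and 415 counts and S had 8, 4 and 7. Its ratio was 6.17 (SE 0.388, adjusted p = 0.000507, edgeR). For gpr173 of the SREB family L had 368, 431 and 417 counts and S had 12, 4 and 9, a ratio of 5.63 (SE 0.487, adjusted p = 0.000768, edgeR). In these 3 pairs no S copy exceeded 12 counts in any library. Their size depends on the low copy: with limma and 0.5 added to each value the ratios were 4.87, 3.79 and 3.28, and all 3 still passed.

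The other pairs with L higher kept both copies above a few counts. For gprc5b the ratio was 3.33 (SE 0.280, adjusted p = 0.000732, edgeR) and for gpr137c it was 3.29 (SE 0.261, adjusted p = 0.000670, edgeR). For gpr143 it was 3.46 (SE 0.599, adjusted p = 0.00584, edgeR), but the gene lengths are 1372 and 2628 bases, and the ratio was 2.53 with no length term and 2.76 without replicate 1. For gpr37 it was 1.92 (SE 0.328, adjusted p = 0.00557, edgeR). The adhesion receptor adgrg2, at 1.79 (SE 0.341, adjusted p = 0.00802, edgeR), was the 1 adhesion pair called of 5 tested. L exceeded S in 3 of 3 libraries in each of these pairs.

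S was higher most widely for gpr85, where the short S model enters the ratio. Its log2 ratio, L over S, came to -5.64 (SE 0.483, adjusted p = 0.000754, edgeR), and -3.06 with no length term, from 140, 94 and 41 counts for L. For gpr162, an orphan, L had 5, 12 and 14 counts and S had 131, 330 and 364. The ratio was -4.72 (SE 0.354, adjusted p = 0.000606, edgeR), and -2.21 with limma. For gprc5cl1 it was -3.79 (SE 0.344, adjusted p = 0.000869, edgeR). For gpr153 it was -3.28 (SE 0.610, adjusted p = 0.00744, edgeR), moving to -3.87 without replicate 1 and -2.51 without replicate 2, since gpr153.S and gpr153.L were high in different libraries.

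The leading rows gpr155.S and gpr146.S also stood well over their L copies. For gpr155 L had 826, 601 and 644 counts and S had 5230, 6706 and 4582, over equal lengths, and the ratio was -2.99 (SE 0.216, adjusted p = 0.000572, edgeR). For gpr146 L had 205, 123 and 190 counts and S had 2010, 993 and 1145, a ratio of -2.97 (SE 0.232, adjusted p = 0.000661, edgeR). Both gpr146 copies lie inside the span of another protein-coding gene, gpr146.L in LOC108701567 at 7.68 TPM and gpr146.S in c7orf50.S at 4.85 TPM. Whether exons are shared was not examined, so reads of the host may be among the counts of either copy. Smaller differences were called for gpr180 at -0.79 (SE 0.214, adjusted p = 0.0253, edgeR) and gpr45 at -1.07 (SE 0.300, adjusted p = 0.0285, edgeR). Both calls were lost whenever 1 library was left out, with adjusted p from 0.0634 to 0.0892 for gpr180 and from 0.0575 to 0.123 for gpr45 (edgeR), and gpr45 also without the block, at 0.0568. In the annotation gpr45.S overlaps a pseudogene, LOC108708955, which has no row of its own. S exceeded L in 3 of 3 libraries in all 8 pairs with S higher.

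The 11 pairs not called had ratios between -1.55 and 0.56. Nearest the threshold were gpr63 at -1.55 (adjusted p = 0.0539, edgeR), gpr107 at 0.48 (adjusted p = 0.0560, edgeR) and adgrl2 at 0.27 (adjusted p = 0.142, edgeR), each with the same sign in 3 of 3 libraries. The pair gpr63 passed with DESeq2, with limma and when L and S were scaled separately, and gpr107 passed with DESeq2. The adhesion pairs adgrl2, adgrb2, adgrl4 and adgrf1 had ratios from -0.21 to 0.41, with SE from 0.137 to 0.462. The 29 pairs not tested had 12 to 603 counts over both copies and all libraries, with a median of 143. Reads that match both copies may have been dropped or split in counting, so ratios of near-identical copies are uncertain.

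**Figure D4:**
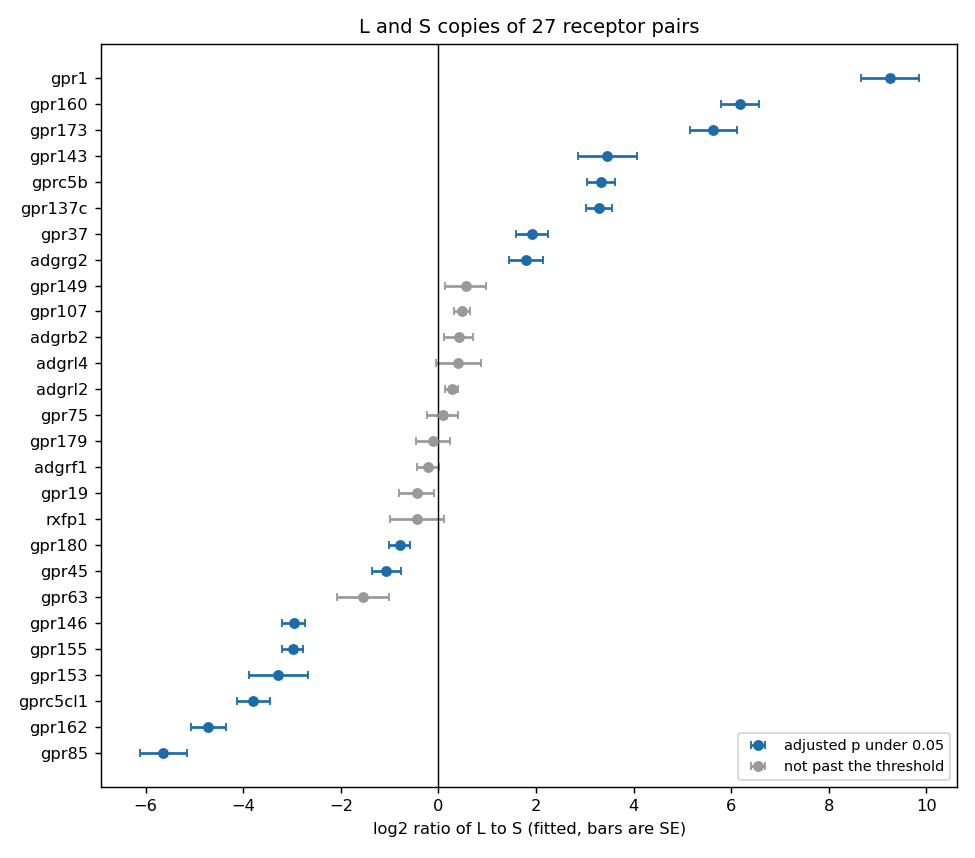
Fitted log2 ratio of L to S for the 27 receptor pairs tested, with bars for the SE, coloured where the adjusted p (edgeR) was under 0.05. Ratios run from 9.25 for gpr1 to -5.64 for gpr85, whose S model has 186 bases, and the adhesion pairs other than adgrg2 lie near 0.

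The library in which most receptor rows were highest depended on the scale. On CPM, 22 of the 65 detected rows were highest in replicate 1, 20 in replicate 2 and 23 in replicate 3, or 33.8%, 30.8% and 35.4%, against 35.6%, 35.8% and 28.6% of all detected rows. On deposited TPM these counts were 31, 16 and 18, or 47.7%, 24.6% and 27.7%, against 50%, 28.3% and 21.6% of all detected rows, so replicate 1 led in both sets. The highest library was over 2-fold above the lowest in 22 rows, or 33.8%, against 21.2% of all detected rows, and over 4-fold in 2, or 3.08%, against 3.89%. Among all detected rows of 1.89 to 12.6 CPM, the middle of the receptor range, the share over 2-fold was 31.0%, and 14 of the 33 receptor rows in that range were, or 42.4%. The steadiest rows were adgrg2.S, adgrl3.S and gpr179.L, whose highest library was 1.03, 1.08 and 1.12 times the lowest. Of these, gpr179.L overlaps the protein-coding mrpl45.L in the annotation, and adgrl3.S overlaps long noncoding RNAs.

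The widest range among detected rows was that of gpr174.L, a lysophosphatidylserine receptor of mammalian lymphocytes. It had 234, 314 and 32 counts, or 3.10, 4.80 and 0.534 CPM, so replicate 3 was the low one. The leukocyte marker list summed to 83.2, 61.5 and 238 TPM, of which mpo.S gave 131 in replicate 3. On TPM 8 of the 9 leukocyte rows were highest in replicate 3, among them mpo.L at 0.573, 4.78 and 8.17 TPM and cd74.L at 25.3, 14.8 and 45.2. The exception was spi1.L, lowest there as gpr174.L was, with 15.3, 18.2 and 6.71 TPM. The row adgrl4.L, for an endothelial adhesion receptor in mammals, had 0.902, 3.90 and 4.44 CPM and was low in replicate 1. The endothelial markers summed to 34.96, 24.96 and 26.36 TPM, highest in replicate 1. By row they were split. On TPM pecam1.L, tie1.L, kdr.S and vwf.L were highest in replicate 1, and cdh5.L, cdh5.S and pecam1.S in replicate 3. The smooth muscle markers summed to 109, 447 and 1237 TPM. Whether any of these lists has a part in these ranges was not tested.

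The other 3 rows completed the 5 widest ranges. The row gpr27.S had 0.597, 0.627 and 2.29 CPM, gpr162.S had 1.74, 5.05 and 6.08 and gprc5b.S had 1.98, 0.734 and 2.35. Among undetected rows rxfp2.S was high in replicate 3 and nearly absent in replicate 2. The Leydig markers summed to 474, 796 and 1454 TPM and the Sertoli markers to 698, 539 and 810. The Sertoli rows were split. On TPM inha.L, sox9.S, amh.S and amh.L were highest in replicate 1, and clu.L, sox9.L, fshr.L and fshr.S in replicate 3. Whether the Leydig or Sertoli list has a part in the range of rxfp2.S was not tested. The row gpr22.S was nearly absent in replicate 1. With 1 library per date and 3 in all, no test of a difference between libraries is possible.

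**Figure D5:**
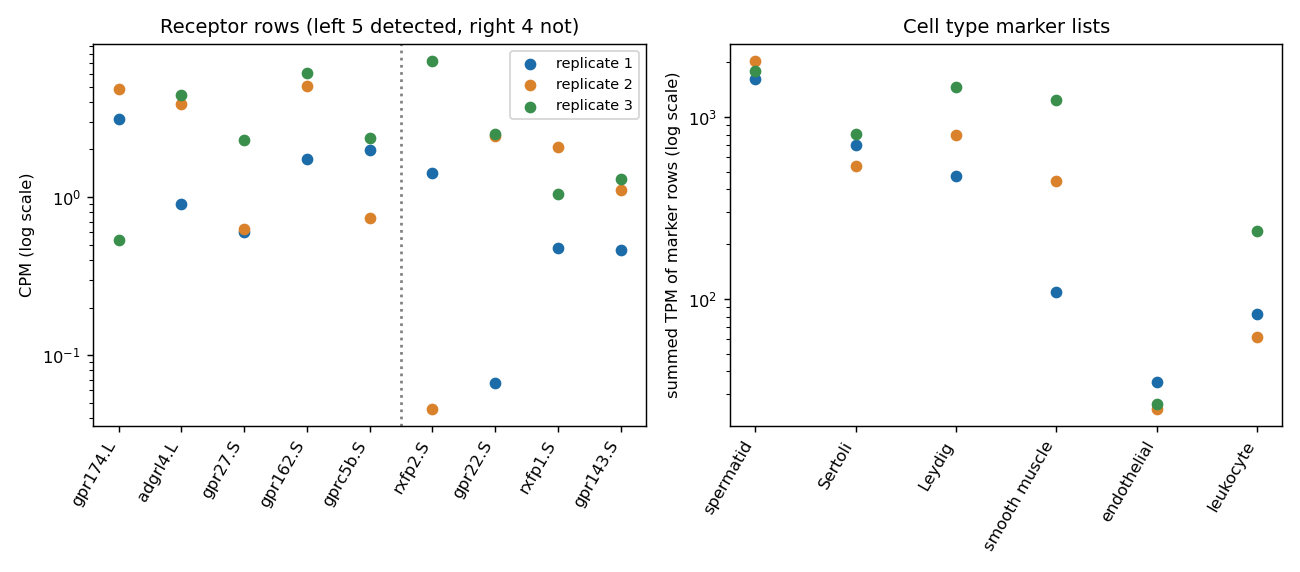
Left, CPM (log scale) in each library of the 5 detected receptor rows with the widest range and of 4 undetected rows among the highest by mean; right, summed TPM (log scale) of 6 marker lists in the same libraries. The row rxfp2.S runs from 0.0459 to 7.21 CPM, and the smooth muscle markers run from 109 to 1237 TPM.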

How the data were processed

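Poly-A RNA from whole testis was measured in 3 libraries of 1 group. Per the file headers, the authors deposited whole read counts and TPM for each library, beside a gene length in bases. The submitters' processing notes name HISAT2 and featureCounts; the sources used here give no versions, strand setting or handling of multi-mapped reads, and the build only as a number in the table's name. Of all gene lengths 90.9% are multiples of 3, so they were taken as coding lengths. Columns were matched to samples by the processing date in the header. Symbols of all 139 receptor rows were found in NCBI's gene list of Xenopus_laevis_v10.1, used for names and overlaps only.

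CPM were computed with TMM factors of 1.07, 0.956 and 0.979 (edgeR 4.0.16). For L against S, counts of 6627 pairs went into edgeR's quasi-likelihood test, blocking on library, with length and effective library size as offset; the SE is the absolute ratio over the square root of F. In simulated counts of these 6627 pairs, 50 pairs each were made to differ 1.5, 2, 4 and 8 fold. The test called 8%, 34%, 84% and 100% of those, and 4 unchanged ones. In the data 61.1% of pairs were called, a far larger share than was changed in the simulation. The adjustment was therefore stricter in the simulation, and its recovery shares do not carry over directly to the data. The coefficient of variation from edgeR's common dispersion was 31.9% between libraries, which may be technical. It was 28.7% in the paired fit of L and S columns, which blocks on library. Alternatives used DESeq2 1.42.0 and limma 3.58.1.

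Members, lists and tests were chosen with earlier results of these data known. Named are the 15 highest rows, all relaxin and most class C rows, detected adhesion rows, called pairs and the 3 nearest misses, the 5 widest and 3 narrowest rows between libraries, 4 of the 5 highest undetected rows, rows at 0 and up to 4 rows per partner list; other rows are named as examples chosen after their values were seen. Some items that this rule names are not reported here. Of 132 list genes 27 matched no row. Protein and promoter sequences were not used here.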

Additional observations from a re-analysis of the deposited data

How the results depend on the processing

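The count of receptor pairs called, 16 of 27, ran from 12 to 22 over all alternatives, but the number tested changed too. It was 12 of 18 at 5 CPM and 22 of 56 with no filter on low counts. Of all pairs 3529 of 5471 and 4257 of 7756 were called there. With no filter the receptor share was thus further below that of all pairs than in the main setting. When a library was left out, 14 to 16 of 29 to 31 receptor pairs were called, against 3201 to 3572 of 6692 to 6721 pairs. L higher rose from 8 to 13 with no filter on low counts, where 56 pairs were tested, against 2404 of 7756 of all pairs. S higher fell from 8 to 5 at 5 CPM, where 18 were tested, against 1568 of 5471 of all pairs. No called pair changed sign. Scaling L and S separately moved the median ratio of all pairs from 0.15 to 0.03 and turned gpr75 from 0.09 to -0.029. Leaving out a library gave ranges across 0 for gpr75 (-0.25 to 0.46), gpr179 (-0.25 to 0.066) and adgrl4 (-0.079 to 0.88), none of them called. Adding 0.5 in limma lowered gprc5cl1 to -2.77, gpr143 to 2.33, gpr37 to 1.31 and adgrg2 to 1.18, by construction for low copies. With no replicate block 15 of 27 receptor pairs were called, against 3758 of 6627 of all pairs.

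Of the 139 receptor rows 104 were detected at 0.1 CPM, 53 at 1 CPM and 68 to 73 without a library. No share of all rows is given for these settings, so they allow no comparison with other genes. The internal membrane sum was 161 on counts per kilobase scaled by TMM. Leaving out gpr85.S, chosen after seeing the data, gave 157 TPM for the other numbered receptors, and gpr155.S then led with 7.93% of the family and a ratio of 0.07 to the next row; the gap of 0.80 was 0.47 without replicate 2, where gpr89b.L is the next row. Depth limits the rows with only a few counts in a library, and the detection level of 0.5 CPM lies above that.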
